A study of Mus musculus with 18 samples.

Results

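67NR is an established mouse mammary tumour cell line that does not metastasize, and the comparison here sets its Kmt2d KO cells against its WT cells in polyA RNA from cultured cells. The members are the 3 Kmt2d KO and 3 WT libraries of 67NR, 6 of the 18 libraries of the series, and every gene that passed a filter on low counts. The libraries were taken by line and genotype label, with earlier results of these data known. The gene lists used below were also chosen with such results known. The 3 Kmt2c KO libraries of the same line entered the fit, so that 9 libraries shared 1 estimate of the spread. All groups were grown in the same serum-containing medium with no other treatment named. The Kmt2d KO cells came from cells that transiently received sgRNA vectors marked with mCherry and a plasmid for Cas9 and GFP. Cells carrying both colours were sorted and the step was repeated, and cells that had lost both colours were sorted last. They are therefore a sorted pool and not a clone, and they can hold different mutations and cells that were not edited. The study checked editing by sequencing the target sites and by immunoblot, which were not analysed here. It reported that nearly all Kmt2d reads were mutant in 67NR, with a smaller share for Kmt2c, and that protein was reduced. The 67NR control is labelled WT, with no control sgRNA named. By the study's definition, replicates are collections of the same line separated by a passage, so p-values measure the spread between collections of 1 WT and 1 Kmt2d KO line and not between independent knockouts.

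KMT2D is a histone methyltransferase of the COMPASS family that places a single methyl group on lysine 4 of histone H3, mostly at enhancers. It works in a complex with KDM6A, a demethylase that removes the repressive methylation of lysine 27 on the same histone, and its close relative KMT2C forms a similar complex. Enhancers hold much of the information that keeps a cell in its type, including the epithelial state of mammary cells and its exchange for a mesenchymal one (EMT). The study asked what loss of either enzyme changes in tumour cells that are not metastatic.

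The 3 sgRNAs against Kmt2d are shown because they define the knockout. The protospacers were taken from the study's list of guides and located by exact match in mm9, and the last 3 bases, in capitals, are the PAM read from mm9. They were read from the forward oligos. The reverse oligo listed for sgRNA 2 is not the complement of its forward oligo but repeats a forward oligo against Kmt2c, so the sequence of sgRNA 2 rests on the forward oligo alone.
sgRNA 1: acggtaaatccaggtcggagTGG
sgRNA 2: gaaatcctcatccgagaacaTGG
sgRNA 3: gagtggtcacccttcccccgGGG
Kmt2d lies on the minus strand of chr15:98662100-98701614 in mm9 and has 55 exons. The protospacers matched the plus strand once each on chromosome 15, at chr15:98701571-98701590 for sgRNA 1, chr15:98701464-98701483 for sgRNA 2 and chr15:98701588-98701607 for sgRNA 3. All 3 fell in exon 1, and the predicted cuts spanned 124 bases. The annotation used here has 1 coding transcript of Kmt2d, in which coding sequence begins in exon 2, so that in it exon 1 is not coding.

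Between 44946005 and 79251530 reads were counted on genes in the 6 libraries. Rn45s, the 45S ribosomal RNA precursor, took 0.591% to 2.45% of the reads in 5 of them but 28.7% in Kmt2d KO replicate 3, and its row was removed before scaling, which left 38881600 to 78735196 reads. Expression is given in CPM, read counts scaled to library size with edgeR's TMM factors and not divided by gene length, so that levels are compared between libraries and not between genes. Replicates 1 and 2 of a genotype correlated at 0.99 across genes (Pearson's r of log2 CPM), and replicate 3 correlated with them at 0.95 to 0.96 in both groups. Replicate 3 stood apart in every genotype, and counts without the replicates numbered 3 are given for all genes and beside several lists. The 5 defining epithelial markers summed to 2134 to 3432 CPM in WT and to 799 to 1638 CPM in Kmt2d KO libraries. The same sums for the 5 fibroblast or mesenchymal markers were 3197 to 6213 and 3889 to 5495 CPM. Nearly all of the latter was Fn1 and Vim, which changed in opposite directions. Mean Fn1 fell from 4531 to 1549 CPM, and mean Vim rose from 623 to 2882 CPM. Col1a1 (means of 2.38 and 2.27 CPM), Col1a2 (0.684 and 0.386) and Pdgfrb (0.901 and 4.90) were low in both genotypes. The cells thus carried epithelial markers beside Fn1 and Vim. The 5 defining immune markers summed to at most 0.377 CPM in any of the 6 libraries.

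The transcriptome differed broadly between the genotypes. Of 13675 genes tested, 1957 (14.3%) were higher and 1533 (11.2%) lower in the knockout, as tested with edgeR (quasi-likelihood). A gene is called here when its Benjamini-Hochberg adjusted p is below 0.1 and its log2 fold change exceeds 0.6 in size, and fold changes are Kmt2d KO over WT throughout. The number of called genes in each list below is to be read beside these shares of 14.3% higher and 11.2% lower. The higher genes had a median log2 fold change of 1.87 and the lower ones a median of 1.31 in size. Of the higher genes, 939 had a log2 fold change over 2 and 288 one over 4, against 370 and 81 of the lower genes. With replicates 1 and 2 only, 2708 genes were higher and 2233 lower. The median over all tested genes was -0.01. Many of the higher genes were near silent in WT cells: of the 2121 tested genes with a WT mean under 1 CPM, 781 were higher and 99 lower. Genes at or near 0 CPM in WT could pass the filter on low counts only through a knockout group, and had little room to fall. The split at this level therefore follows in part from the filter and the floor. Of the 2374 genes with a WT mean over 100 CPM, 138 were higher and 214 lower. Kmt2d KO libraries lay entirely above WT libraries for 2741 genes and entirely below for 2436, together 37.9% of the genes tested.

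The targeted gene did not lose its mRNA. Kmt2d measured 117, 101 and 85.4 CPM in WT replicates 1 to 3 and 98.9, 154 and 103 CPM in the Kmt2d KO libraries. The groups overlapped, and the log2 fold change was 0.23 (SE 0.23, edgeR adjusted p = 0.535). The level of this mRNA could therefore not check the genotype labels. Kmt2c, the related methyltransferase, was at 59.5, 65.9 and 56.2 CPM in WT and 99.6, 119 and 101 CPM in Kmt2d KO libraries, all of which lay above WT, with a log2 fold change of 0.81 (SE 0.14, edgeR adjusted p = 0.00296). Kdm6a, the demethylase of the same complex, rose from 45.2, 49.6 and 37.3 CPM to 76.8, 76.4 and 64.3 CPM, a log2 fold change of 0.72 (SE 0.17, edgeR adjusted p = 0.0137). In Kmt2c KO cells, Kmt2c and Kdm6a had log2 fold changes over WT of 0.64 and 0.63. Of 20 tested genes for COMPASS subunits and partners, 3 were higher and 0 lower, with a median log2 fold change of 0.04. The third was Hcfc2, at 19.5, 20.6 and 11.2 CPM in WT and 28.7, 28.2 and 21.9 CPM in Kmt2d KO libraries (log2 fold change 0.62, edgeR adjusted p = 0.095). Hcfc2 was not called without WT replicate 1 (0.71) or 3 (0.39) or without Kmt2d KO replicate 1 (0.55) or 2 (0.56). The core subunits Ash2l, Wdr5, Rbbp5 and Dpy30 had log2 fold changes of -0.27, 0.05, -0.44 and -0.18 and none was called. Among 31 Polycomb and DNA methylation genes, which act on the repressive side of chromatin, 1 was higher and 2 were lower. The higher one was Bmi1, from 159 to 249 CPM (log2 fold change 0.65), and it was not called without WT replicate 3 (0.57) or Kmt2d KO replicate 1 (0.57). The lower ones were Tet1, which oxidizes methylated cytosine and fell from 2.20 to 0.461 CPM (log2 fold change -2.26), and Dnmt3b, a de novo DNA methyltransferase that fell from 5.51 to 1.96 CPM (-1.49). When replicate number was added to the fit, called the replicate block below, 2 genes of this list were higher.

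Epithelial genes were lower in Kmt2d KO cells. Of 32 tested genes for epithelial adhesion, keratins and epithelial transcription factors, 24 were lower and 0 higher, where 11.2% of all genes tested were lower. The list's median log2 fold change was -1.26, against -0.01 for all genes, and for 27 of the 32 every Kmt2d KO library lay below every WT library, where this held for 17.8% of all genes tested. Cdh1, which encodes the adherens junction protein E-cadherin, was at 514, 526 and 462 CPM in WT and 222, 206 and 162 CPM in Kmt2d KO libraries. The WT libraries were all above 450 CPM and the knockout libraries all below 230 CPM, and the log2 fold change was -1.35 (SE 0.18, edgeR adjusted p = 8.62e-04). Ehf, an ETS family transcription factor of epithelial cells, fell furthest of the list, from 68.7, 67.3 and 75.5 CPM to 3.97, 4.0 and 11.6 CPM, with a log2 fold change of -3.44 (SE 0.41, edgeR adjusted p = 4.25e-04). The tight junction gene Tjp3 fell from 28.0, 21.6 and 18.6 CPM to 4.27, 4.74 and 5.50 CPM, a log2 fold change of -2.24 (SE 0.24, edgeR adjusted p = 2.38e-04). Rab25, a GTPase of epithelial membrane recycling, fell from 40.3, 34.9 and 34.6 CPM to 8.74, 11.9 and 10.1 CPM, a log2 fold change of -1.83 (SE 0.20, edgeR adjusted p = 2.29e-04). The junction genes spread across the same range: Cldn3, Cldn4, Cldn7, Ocln, Marveld2 and Jup had log2 fold changes of -1.69, -1.65, -1.42, -1.22, -1.41 and -1.60, and all 6 were called. Epcam, which encodes a surface protein of epithelial cells, had -1.35, and the epithelial transcription factors Elf3 and Grhl2 had -1.47 and -1.01.

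The keratin genes Krt7 and Krt8 were highest in replicate 3 of each group. Krt7 was at 1069, 897 and 1429.8 CPM in WT and 157, 161 and 578 CPM in Kmt2d KO libraries, without overlap, a log2 fold change of -1.92 (SE 0.55, edgeR adjusted p = 0.0351). The call was lost without Kmt2d KO replicate 1 (log2 fold change -1.62, edgeR adjusted p = 0.112) or without Kmt2d KO replicate 2 (-1.62, adjusted p = 0.109). Krt8, also a keratin of simple epithelia, was at 297, 268 and 784 CPM in WT and 125, 117 and 438 CPM in Kmt2d KO libraries. Replicate 3 was the highest of each group, the groups overlapped, and Krt8 was not called (log2 fold change -0.99, edgeR adjusted p = 0.316). With the replicate block Krt8 had a log2 fold change of -1.08 and an adjusted p of 0.000118 by edgeR, and Esrp1, a splicing factor of epithelial transcripts, had -0.99 and 0.000189. Without the block, Esrp1 had -0.96 and an adjusted p of 0.117. The block gave 30 lower genes of the 32, and replicates 1 and 2 alone gave 27.

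**Figure D1:**
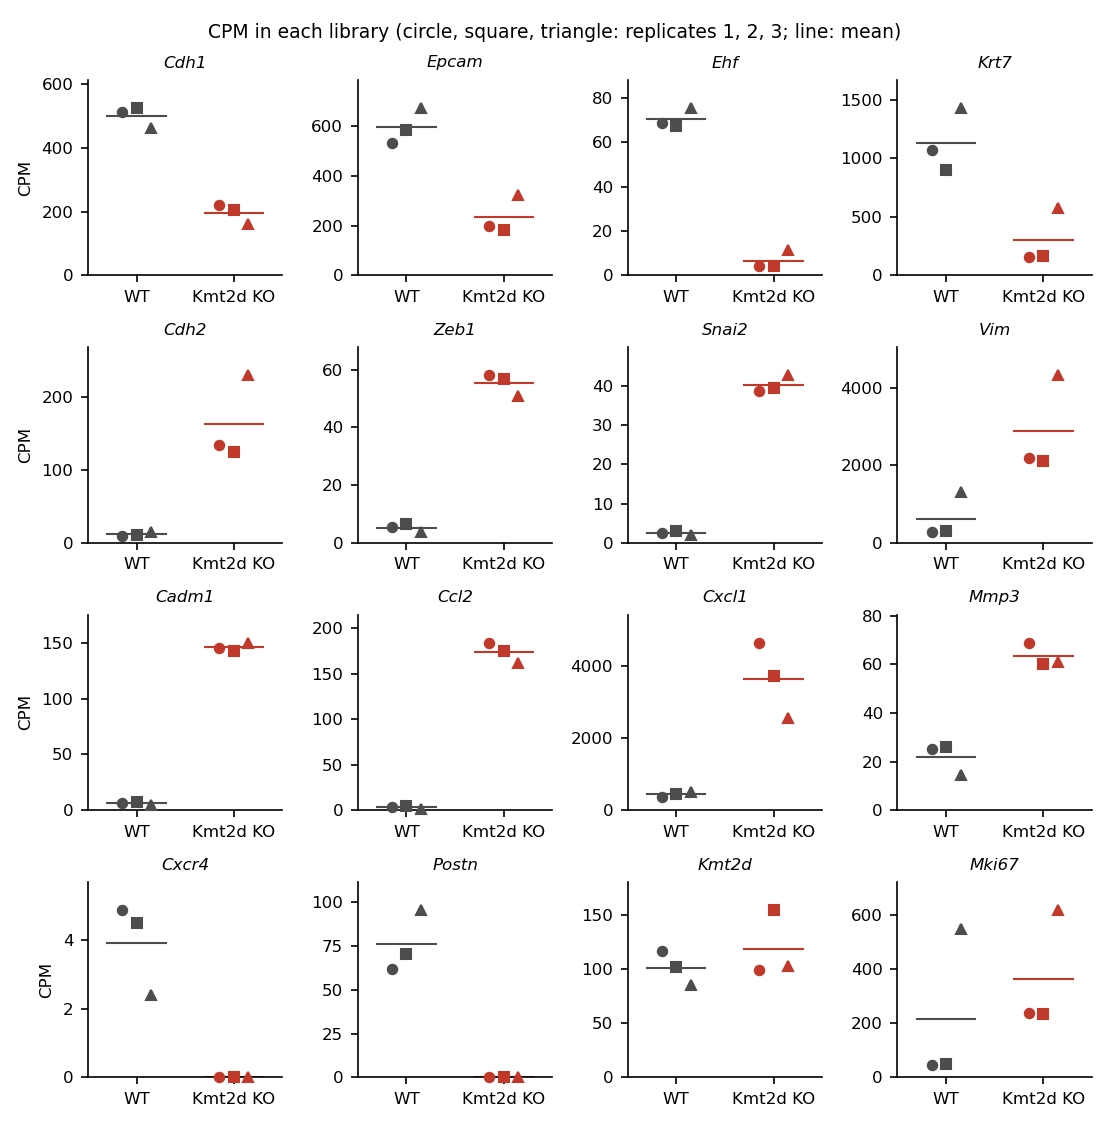
Level in CPM (y axes, linear from 0) of selected genes in the WT and Kmt2d KO libraries (x axes), with replicates 1, 2 and 3 as circle, square and triangle and the group mean as a line. For genes such as Cdh1, Zeb1 and Cadm1 the 3 knockout libraries lie together and apart from the 3 WT libraries.

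Several transcription factors that repress epithelial genes were higher. Of 13 tested EMT transcription factors, 6 (46.2%) were higher and 4 (30.8%) lower, with a median log2 fold change of 0.53. Zeb1, a zinc finger repressor of Cdh1, was at 5.53, 6.49 and 3.75 CPM in WT and 58.1, 56.9 and 51.0 CPM in Kmt2d KO libraries. Every knockout library stood above 50 CPM and every WT library below 7 CPM, and the log2 fold change was 3.39 (SE 0.22, edgeR adjusted p = 1.62e-05). Snai2, which encodes the repressor SLUG, rose from 2.36, 2.99 and 2.02 CPM to 38.7, 39.4 and 42.8 CPM, a log2 fold change of 4.03 (SE 0.32, edgeR adjusted p = 4.00e-05). Twist2, a basic helix-loop-helix factor, rose from 0.315, 0.419 and 0.232 CPM to 2.99, 3.59 and 5.63 CPM, a log2 fold change of 3.63 (SE 0.35, edgeR adjusted p = 1.16e-04). The homeobox gene Prrx1 rose from 20.5 to 427 CPM (log2 fold change 4.38), Zeb2 from 40.0 to 143 CPM (1.84) and Twist1 from 41.8 to 84.1 CPM (1.01). Snai1, the closest relative of Snai2, was not called, with a log2 fold change of 0.53. The forkhead members of the list went the other way. Foxc1 fell from 199, 216 and 215 CPM to 67.4, 71.8 and 69.0 CPM, a log2 fold change of -1.60 (SE 0.14, edgeR adjusted p = 5.54e-05), and Foxc2 and Foxq1 had log2 fold changes of -1.36 and -1.64. Foxc2 lay in a run of 4 neighbouring tested genes that were all lower, with Fendrr, Foxf1 and Mthfsd.

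ZEB, SNAI and TWIST proteins bind E-boxes, so the E-box CAGGTG was counted on both strands (CACCTG on the other) in promoters from 250 bases before to 50 bases after the start. Sequences came from RefSeq on build GRCm38.p6. Of 27025 promoters, 20% held the motif. Only 20 of the 33 epithelial genes had an entry, too few for a comparison, and 15 of those 20 held it. The promoter of Epcam is printed with its 2 matches in capitals, which begin 187 and 19 bases before the start (plus strand, chr17:87635729-87635978 in GRCm38.p6).
Epcam promoter: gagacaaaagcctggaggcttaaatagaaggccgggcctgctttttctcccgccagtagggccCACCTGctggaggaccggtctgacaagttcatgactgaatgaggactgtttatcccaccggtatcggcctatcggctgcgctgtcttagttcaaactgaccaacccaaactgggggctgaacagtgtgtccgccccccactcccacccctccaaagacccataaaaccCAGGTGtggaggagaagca
A match describes the letters in this window and does not show binding.

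Mesenchymal and adhesion genes changed in a mixed pattern in which the cadherin family stood out. Of 14 tested cadherins and protocadherins, which hold cells together through calcium-dependent contacts, 10 were higher and 2 lower, where 14.3% of all genes tested were higher. Their median log2 fold change was 2.66. Without the replicates numbered 3, 12 were higher and 3 lower, with a median of 1.73. That fit had its own filter on low counts, so its tested cadherins were not the same 14 genes. The part of the lower median that comes from this was not tested. Cdh2, which encodes N-cadherin, rose from 8.56, 9.95 and 15.2 CPM in WT to 134, 125 and 229 CPM in Kmt2d KO libraries, without overlap, a log2 fold change of 3.86 (SE 0.37, edgeR adjusted p = 1.25e-04). Pcdh7, a protocadherin of the nervous system that some brain metastatic cells use, rose from 7.68, 8.59 and 2.83 CPM to 141, 126 and 111 CPM, a log2 fold change of 4.30 (SE 0.40, edgeR adjusted p = 8.69e-05). Pcdh10 rose from 1.68, 1.59 and 0.695 CPM to 36.1, 30.7 and 23.4 CPM, a log2 fold change of 4.49 (SE 0.35, edgeR adjusted p = 3.80e-05). Pcdh9, Pcdh17, Pcdh19 and the giant cadherin Fat2 had log2 fold changes of 3.95, 3.34, 3.44 and 3.96, each called. Fat1 and Cdh1 were the 2 lower members. Fat1 had a log2 fold change of -0.65 and was not called without WT replicate 1 (-0.55) or 2 (-0.60) or without Kmt2d KO replicate 1 (-0.56) or 2 (-0.60). Vim, which encodes the intermediate filament vimentin, was among the 5 genes of largest CPM gain, from 268, 294 and 1306 CPM to 2201, 2117 and 4327 CPM (log2 fold change 2.21 (SE 0.62, edgeR adjusted p = 0.032)). WT replicate 3 stood far above the other WT libraries for Vim but below every knockout library.

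Cell surface genes known from the nervous system moved in both directions. Cadm1, an immunoglobulin adhesion molecule of epithelia and synapses, was at 6.45, 7.24 and 4.89 CPM in WT and 146, 143 and 151 CPM in Kmt2d KO libraries. The knockout libraries differed by less than 10 CPM and stood 23.7-fold above WT by their means, with a log2 fold change of 4.56 (SE 0.18, edgeR adjusted p = 3.75e-06). Of 41 tested genes for guidance cues, their receptors and neuronal adhesion molecules, 7 (17.1%) were higher and 13 (31.7%) lower. The list's median log2 fold change was -0.57. With replicates 1 and 2 alone, 11 were higher and 17 lower. Sema7a, a membrane-bound semaphorin, rose from 34.6, 28.4 and 24.3 CPM to 188, 220.1 and 304 CPM, a log2 fold change of 3.03 (SE 0.24, edgeR adjusted p = 3.57e-05). Its fellow semaphorin Sema3a had 3.21 and the semaphorin receptor Plxna2 3.60, both higher. Sema3f, a secreted repulsive cue, fell from 84.0, 69.0 and 50.6 CPM to 15.5, 23 and 24.2 CPM, a log2 fold change of -1.70 (SE 0.23, edgeR adjusted p = 9.59e-04). The netrins Ntn1 and Ntn4 had log2 fold changes of -1.55 and -3.13, and the ephrin gene Efnb2 -1.24, all lower. Nrcam, a neuronal adhesion molecule, was higher (2.50).

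Integrins link cells to the matrix as pairs of an alpha and a beta chain. Of 18 tested integrin genes, 5 (27.8%) were higher and 7 (38.9%) lower, with a median log2 fold change of -0.62. Itga5, the alpha chain of the fibronectin receptor, rose from 43.5, 36.2 and 45.6 CPM to 122, 131 and 114 CPM, and Itgav from 267, 279 and 258 CPM to 548, 519 and 518 CPM. Neither overlapped WT, with log2 fold changes of 1.55 (SE 0.18, edgeR adjusted p = 3.48e-04) and 0.98 (SE 0.14, edgeR adjusted p = 0.00107). Of the beta chains that can pair with Itgav, Itgb3, Itgb5 and Itgb6 were lower, with log2 fold changes of -3.71, -1.34 and -2.50, all called. Itgb5 fell from 173, 149.8 and 133 CPM to 56.3, 59.0 and 64.5 CPM (log2 fold change -1.34 (SE 0.15, edgeR adjusted p = 2.57e-04)). Itgb1, which can also pair with Itgav and is the most widely shared beta chain, was at 992, 1069 and 812 CPM in WT and 979, 799.9 and 937 CPM in Kmt2d KO libraries, which overlapped, with a log2 fold change of -0.08 and no call.

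The matrix genes held 1 of the deepest falls beside several large rises. Of 30 tested collagens and interstitial matrix genes, 13 (43.3%) were higher and 4 (13.3%) lower, with a median log2 fold change of 0.87. Postn, which encodes the matrix protein periostin, was at 62.0, 70.6 and 95.4 CPM in WT and at 0.120, 0.141 and 0.162 CPM in Kmt2d KO libraries. Its log2 fold change was -9.07 (SE 0.59, edgeR adjusted p = 1.62e-05). Thbs1, for thrombospondin, fell from 1100.3, 1114 and 1629 CPM to 109.8, 114 and 327 CPM, a log2 fold change of -2.81 (SE 0.51, edgeR adjusted p = 0.00436). Fn1, for fibronectin, was at 5942, 5767 and 1884 CPM in WT and 1723, 1764 and 1159 CPM in Kmt2d KO libraries, where WT replicate 3 lay close to the knockout libraries. Its log2 fold change was -1.55 (SE 0.44, edgeR adjusted p = 0.0319), but leaving out WT replicate 1 gave -1.32 (edgeR adjusted p = 0.104), which was not called. Among the rises, Vcan, for the proteoglycan versican, went from 2.81, 3.44 and 1.58 CPM to 40.5, 39.8 and 43.7 CPM, a log2 fold change of 3.98 (SE 0.27, edgeR adjusted p = 1.95e-05). The collagen gene Col5a3 had 3.31, and the lysyl oxidase gene Loxl1, whose product crosslinks elastin and collagen, 3.05. Tnc, Sparc and Col6a3 had log2 fold changes of 2.99, 1.61 and 3.18, each higher. The fibril collagens Col1a1 and Col1a2 were not called, with -0.06 and -0.82.

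Basement membrane genes split in both directions. Of 20 tested, 4 were higher and 7 lower with a median log2 fold change of 0.00. Agrn, for the proteoglycan agrin, fell from 247, 223 and 262 CPM to 64.6, 77.3 and 95.8 CPM, a log2 fold change of -1.62 (SE 0.17, edgeR adjusted p = 2.19e-04). The laminin gene Lama5 was also lower, with -1.15, as was the anchoring fibril collagen Col7a1 with -1.71. Nid1, for nidogen, rose from 6.60, 6.84 and 7.67 CPM to 20.3, 23.8 and 22.6 CPM (1.66). Col4a3, a collagen IV chain of specialized basement membranes, had no read in any WT library and 0.321, 0.321 and 0.431 CPM in Kmt2d KO libraries. Against a floor of 3 reads over the group, this is at least 23-fold higher.

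**Figure D2:**
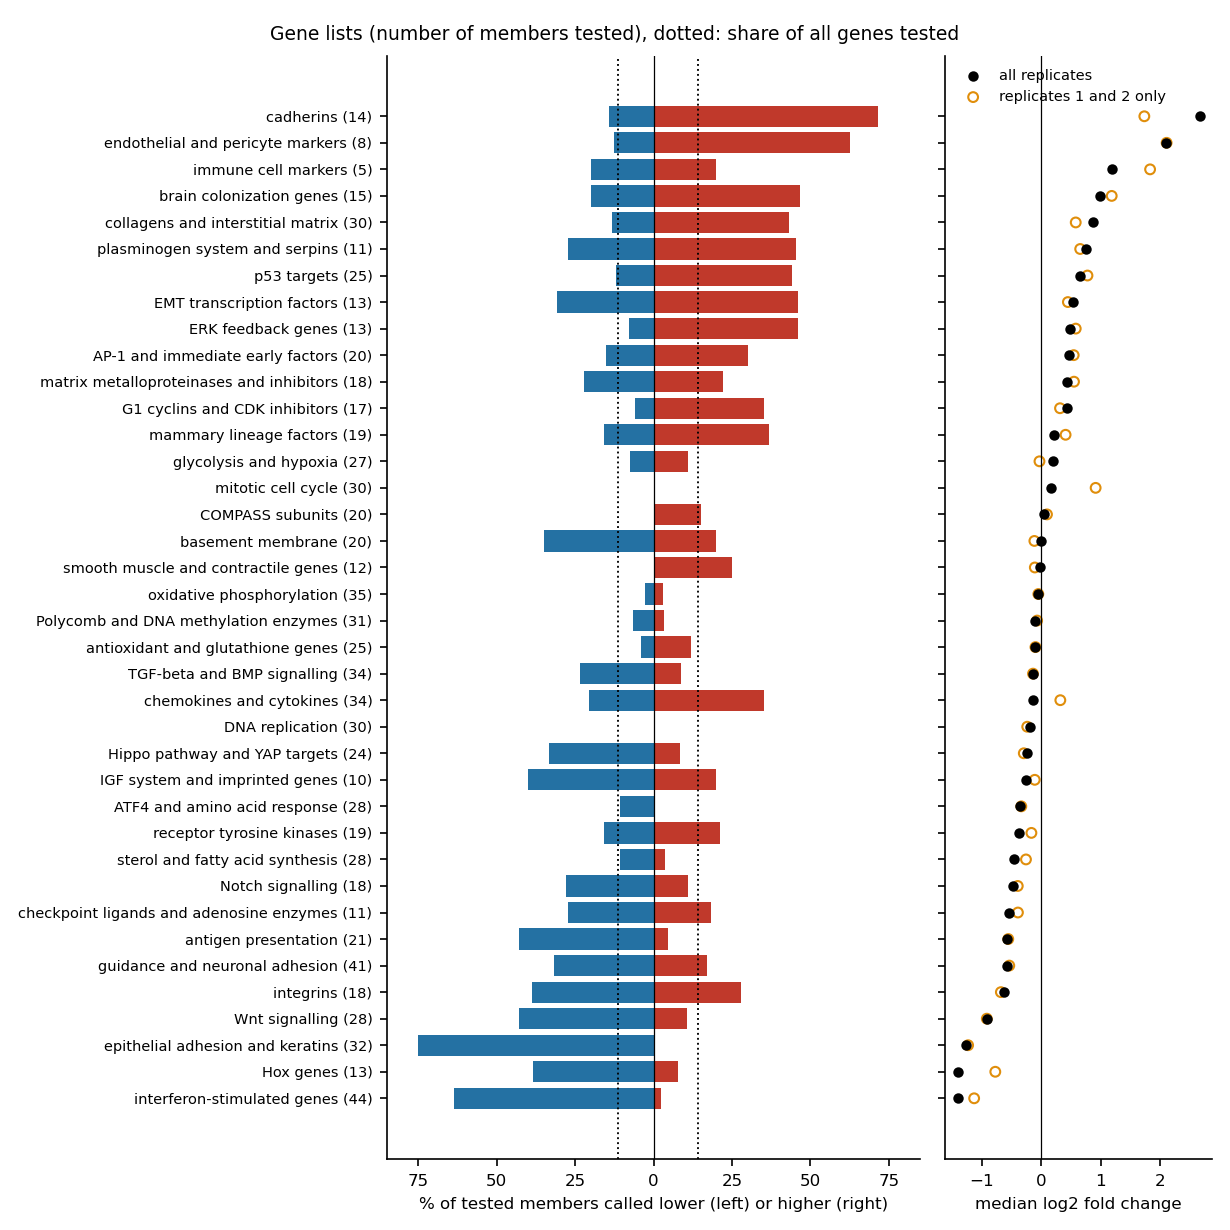
Share of each list's tested members called lower or higher (left, in percent, dotted lines at the shares of all genes, 11.2% and 14.3%) and the list's median log2 fold change (right) for all replicates (filled) and for replicates 1 and 2 only (open). Epithelial and interferon genes have medians of -1.26 and -1.41, and cadherins the largest positive one of the 38 lists, 2.66. The cadherin median is 1.73 in replicates 1 and 2, where the filter was run anew and the tested members differ.

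Matrix metalloproteinases were of interest to the study through Mmp3, which encodes stromelysin-1. Mmp3 lies at chromosome 9, 7445822 to 7455972 in mm9 and was at 25.2, 26.1 and 14.3 CPM in WT and 69.0, 60.4 and 61.0 CPM in Kmt2d KO libraries. Every knockout library stood above 60 CPM and every WT library below 27 CPM. The log2 fold change was 1.54 (SE 0.35, edgeR adjusted p = 0.0128), and the call held with each library left out. Of 18 tested metalloproteinases and inhibitors, 4 (22.2%) were higher and 4 (22.2%) lower, with a median log2 fold change of 0.44. Under the replicate block 8 were higher and 4 lower, and with replicates 1 and 2 alone 9 and 4. Mmp10, the neighbour and closest relative of Mmp3, rose from 4.87, 4.14 and 3.98 CPM to 40.1, 31.6 and 19.8 CPM (log2 fold change 2.81 (SE 0.45, edgeR adjusted p = 0.00222)). Mmp13, a collagenase of the same cluster, fell from 284, 318 and 37.9 CPM to 21.9, 16.8 and 23.1 CPM, a log2 fold change of -3.37 (SE 0.65, edgeR adjusted p = 0.00548). WT replicate 3 was far below the other WT libraries for Mmp13 and still above every knockout library. Mmp15, a membrane-type metalloproteinase, fell from 36.6, 30.4 and 19.5 CPM to 0.802, 0.361 and 0.377 CPM, a log2 fold change of -5.79 (SE 0.42, edgeR adjusted p = 2.49e-05). Mmp14, the main membrane-type member, and the inhibitors Timp1 and Timp2 were not called, with -0.62, 1.02 and -0.18. With the replicate block Timp1 had 1.06 and an edgeR adjusted p of 6.92e-05.

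The plasminogen system activates proteases outside the cell and is held back by serpins. Of 11 tested genes, 5 were higher and 3 lower. Plaur, the receptor that holds urokinase at the surface, rose from 37.0, 31.6 and 43.4 CPM to 57.0, 58.9 and 75.1 CPM, a log2 fold change of 0.77 (SE 0.19, edgeR adjusted p = 0.0189). Serpine2, an inhibitor of thrombin and plasminogen activators, fell from 50.4, 51.2 and 18.4 CPM to 4.03, 3.96 and 5.93 CPM, a log2 fold change of -3.11 (SE 0.42, edgeR adjusted p = 8.86e-04). Serpini1 and Serpinb2, which encode neuroserpin and PAI-2, had 2.66 and 2.37. Of 15 tested genes known from work on brain colonization, to which both serpins also belong, 7 (46.7%) were higher and 3 (20%) lower. The list's median log2 fold change was 0.99. Hbegf, an EGF receptor ligand, rose from 112, 116 and 93.5 CPM to 299, 317 and 300.4 CPM (1.51 (SE 0.15, edgeR adjusted p = 1.39e-04)), and the gap junction gene Gja1 had 0.99. Ptgs2, for the prostaglandin synthase COX-2, was at 753, 802 and 770.3 CPM in WT and 2806, 2573 and 944 CPM in Kmt2d KO libraries, with replicate 3 far below the other knockout libraries. Its log2 fold change was 1.44 (SE 0.43, edgeR adjusted p = 0.0386), and the call was lost without WT replicate 1 (1.41, adjusted p = 0.117), Kmt2d KO replicate 1 (1.18, 0.13) or Kmt2d KO replicate 2 (1.28, 0.116).

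Cxcr4, the receptor of the chemokine CXCL12, was at 4.87, 4.49 and 2.41 CPM in WT and had no read in any Kmt2d KO library. Against a floor of 3 reads over the group, it was at least 179-fold lower than in WT. Its ligand Cxcl12 was higher, from 2.73 to 22.5 CPM, a log2 fold change of 3.04 (SE 0.51, edgeR adjusted p = 0.00286). Fscn1, which encodes the actin bundler fascin, fell from 315, 255 and 432 CPM to 108, 134 and 155 CPM (-1.34 (SE 0.28, edgeR adjusted p = 0.00885)). Lcn2, for the iron-binding protein lipocalin-2, was at 1603, 1518 and 219 CPM in WT and 259, 286 and 111 CPM in Kmt2d KO libraries. WT replicate 3 lay within the range of the knockout libraries, and the log2 fold change of -2.35 (SE 0.69, edgeR adjusted p = 0.0376) was not called without WT replicate 1 (-2.0, adjusted p = 0.112).

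Interferon-stimulated genes were lower in Kmt2d KO cells. Of 44 tested, 28 were lower and 1 was higher, with a median log2 fold change of -1.41 against -0.01 for all genes. Over all genes tested, 11.2% were lower. For 33 of the 44 every knockout library lay below every WT library, as did 17.8% of all genes tested. Replicates 1 and 2 alone gave 31 lower and 2 higher with a median of -1.13. Oasl2, an antiviral gene of the oligoadenylate synthetase family, fell from 37.4, 38.7 and 56.5 CPM to 4.41, 4.64 and 4.53 CPM, a log2 fold change of -3.29 (SE 0.26, edgeR adjusted p = 3.97e-05). Rtp4 fell from 25.4, 28.0 and 48.3 CPM to 4.11, 4.04 and 5.31 CPM, with -2.92 (SE 0.29, edgeR adjusted p = 1.41e-04). The ubiquitin-like modifier Isg15 and the antiviral effectors Ifit1 and Rsad2 had log2 fold changes of -2.16, -2.67 and -3.54. Among the regulators, Irf7, Irf9 and Irf1 were lower with -2.25, -1.38 and -0.95. Stat2, which carries the interferon signal to the nucleus, was not called, with -0.32. Trim30a was the only higher member, with 0.78 and an edgeR adjusted p of 0.0945, and it was not called without WT replicate 1 (0.87) or 3 (0.48) or without Kmt2d KO replicate 1 (0.64) or 2 (0.80). Under the replicate block 33 were lower and 2 higher. The guanylate-binding protein genes Gbp2 and Gbp7 had -1.40 and -1.41, and since members of this family share sequence, the split of reads between them is uncertain.

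The interferon-stimulated response element was searched on both strands as GAAA, any 2 bases and GAAA again, in the same promoter windows. It was found in 3.49% of all promoters and in 18 of the 31 list members with an entry, out of 44 genes, too few for a comparison. Isg15 and Ifit1 are printed with their matches in capitals, as clear cases of the element among genes that fell. For Isg15 (minus strand, chr4:156200819-156201068 in GRCm38.p6) 3 overlapping matches begin 78, 72 and 66 bases before the start. For Ifit1 (plus strand, chr19:34640639-34640888) 2 matches on the other strand begin 104 and 85 bases before it.
Isg15 promoter: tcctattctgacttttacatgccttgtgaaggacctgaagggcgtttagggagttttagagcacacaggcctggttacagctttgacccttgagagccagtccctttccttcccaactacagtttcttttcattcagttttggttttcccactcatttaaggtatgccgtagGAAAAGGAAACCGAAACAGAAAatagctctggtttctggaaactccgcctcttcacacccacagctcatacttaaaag
Ifit1 promoter: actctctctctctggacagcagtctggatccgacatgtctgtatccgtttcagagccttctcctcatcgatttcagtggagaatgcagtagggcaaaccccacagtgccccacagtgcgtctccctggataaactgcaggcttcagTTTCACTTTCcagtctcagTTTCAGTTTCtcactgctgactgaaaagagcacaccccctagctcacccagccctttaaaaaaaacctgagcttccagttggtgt

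Antigen presentation genes were lower in part, and Psmb8 and Psmb9 among them are also on the interferon-stimulated list. Of 21 tested genes, 9 were lower and 1 higher, with a median log2 fold change of -0.57. Psmb8, an immunoproteasome subunit, fell from 117, 108 and 144 CPM to 34.6, 35.9 and 29.5 CPM, a log2 fold change of -1.88 (SE 0.16, edgeR adjusted p = 4.82e-05), and its partners Psmb9 and Psmb10 had -1.66 and -1.99. H2-T23, a non-classical class I gene, fell from 101, 81.1 and 70.4 CPM to 18.5, 23.1 and 17.5 CPM (-2.10 (SE 0.21, edgeR adjusted p = 1.58e-04)), and Tapbp, which helps to load peptides, had -1.0. The classical class I genes H2-K1 and H2-D1 were not called, with -0.19 and 0.07, nor was B2m, whose product forms the light chain of all class I molecules, with 0.44. The light chain gene was at 1287, 1417 and 1376 CPM in WT and 1925, 1914 and 1699 CPM in Kmt2d KO libraries. Cd274, for the checkpoint ligand PD-L1, was not called (-0.54), but had -0.66 with the replicate block (edgeR adjusted p = 0.0292). Of 11 tested checkpoint ligands and adenosine enzymes, 2 were higher and 3 lower, and 5 were lower with the replicate block. Pvr, a nectin-like ligand of immune receptors, rose from 66.9, 70.6 and 34.8 CPM to 287, 270.4 and 130.0 CPM (2.0 (SE 0.39, edgeR adjusted p = 0.0063)), and Cd276 fell from 76.5, 66.1 and 73.9 CPM to 32.6, 30.9 and 22.6 CPM (-1.33 (SE 0.23, edgeR adjusted p = 0.00351)).

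Chemokines and cytokines included some of the largest changes in both directions. Of 34 tested, 12 (35.3%) were higher and 7 (20.6%) lower, with a median log2 fold change of -0.14. Replicates 1 and 2 alone gave 16 higher and 11 lower with a median of 0.32, and the replicate block gave 13 and 11. Ccl2, which attracts monocytes, was at 3.78, 4.07 and 1.41 CPM in WT and 184, 174 and 162 CPM in Kmt2d KO libraries. The knockout mean was 56.2-fold that of WT, with a log2 fold change of 5.80 (SE 0.46, edgeR adjusted p = 4.07e-05). Cxcl1, which attracts neutrophils, had the largest gain in mean CPM of any called gene whose groups did not overlap, from 369, 446 and 509 CPM to 4645, 3728 and 2545 CPM, a log2 fold change of 3.04 (SE 0.29, edgeR adjusted p = 1.06e-04). Il33, an alarmin of the interleukin-1 family, rose from 2.59, 3.22 and 1.90 CPM to 38.6, 31.5 and 33.6 CPM, with 3.74 (SE 0.23, edgeR adjusted p = 1.06e-05). The inflammatory cytokine Il6 rose from 0.198 to 8.61 CPM (log2 fold change 5.34) and Il11, of the same family, from 3.33 to 25 CPM (2.90). Ccl20, which attracts dendritic cells and some T cells, fell from 49.7, 56.4 and 12.9 CPM to 1.84, 1.29 and 1.08 CPM, a log2 fold change of -4.82 (SE 0.69, edgeR adjusted p = 0.00115). The granulocyte colony-stimulating factor gene Csf3 fell from 162, 136 and 114 CPM to 44.2, 52.5 and 60.8 CPM (-1.39 (SE 0.19, edgeR adjusted p = 9.03e-04)), and Csf2, Tnf and Cxcl2 had -1.94, -2.98 and -1.82. Ccl2, Il6 and Cxcl1 are shared targets of inflammatory signalling with Tnf and Cxcl2, and they moved in opposite directions here.

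Receptor tyrosine kinases changed in both directions. Of 19 tested, 4 (21.1%) were higher and 3 (15.8%) lower, beside 14.3% and 11.2% of all genes tested, with a median log2 fold change of -0.38. Fgfr1, a fibroblast growth factor receptor, rose from 14.7, 13.3 and 8.99 CPM to 102, 122 and 109 CPM, a log2 fold change of 3.17 (SE 0.21, edgeR adjusted p = 1.71e-05). Pdgfra, a platelet-derived growth factor receptor, rose from 11.3, 13.3 and 15.1 CPM to 151, 143 and 94.5 CPM (3.29 (SE 0.27, edgeR adjusted p = 4.78e-05)), and its partner Pdgfrb had 2.43. Axl, a receptor of the TAM family, rose from 427, 430.0 and 411 CPM to 993, 949.6 and 1208 CPM, a log2 fold change of 1.31 (SE 0.20, edgeR adjusted p = 0.00151). The epithelial receptors Egfr, Erbb2 and Met were not called, with -0.40, -0.46 and 0.22. A run of EGF receptor ligand genes on chromosome 5 (Epgn, Ereg, Areg and Btc) was higher, in a run of 6 higher genes with a median log2 fold change of 2.03. Areg, for amphiregulin, rose from 9.39 to 34.6 CPM (1.88 (SE 0.27, edgeR adjusted p = 0.00115)).

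Genes that report ERK activity were higher in part. Of 13 tested ERK feedback genes, 6 (46.2%) were higher and 1 (7.69%) lower. Dusp6, a phosphatase that acts on ERK, rose from 115, 122 and 111 CPM to 318, 292 and 308 CPM, a log2 fold change of 1.40 (SE 0.14, edgeR adjusted p = 1.33e-04), and Spry2 had 1.39. Spry1 moved the other way, from 132, 125 and 87.8 CPM to 34.1, 37.4 and 35.5 CPM, a log2 fold change of -1.69 (SE 0.18, edgeR adjusted p = 1.98e-04). The replicate block gave 2 lower. Of 20 tested AP-1 and immediate early factors, 6 were higher and 3 lower, with a median of 0.46. Jun, an AP-1 subunit, rose from 114, 106 and 131 CPM to 552, 578 and 438 CPM, a log2 fold change of 2.16 (SE 0.17, edgeR adjusted p = 4.26e-05). Fosl1, its partner FRA1, rose from 42.8, 36.8 and 88.7 CPM to 279.6, 314 and 292 CPM (2.40 (SE 0.31, edgeR adjusted p = 6.61e-04)), and the immediate early gene Egr1 from 40.8, 43.6 and 48.5 CPM to 156, 159 and 169 CPM (1.86 (SE 0.13, edgeR adjusted p = 2.14e-05)). Jund fell from 512, 491 and 637 CPM to 220.5, 299.7 and 266 CPM (-1.06 (SE 0.18, edgeR adjusted p = 0.00255)), while Fos and Junb were not called, with -0.57 and -0.05.

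**Figure D3:**
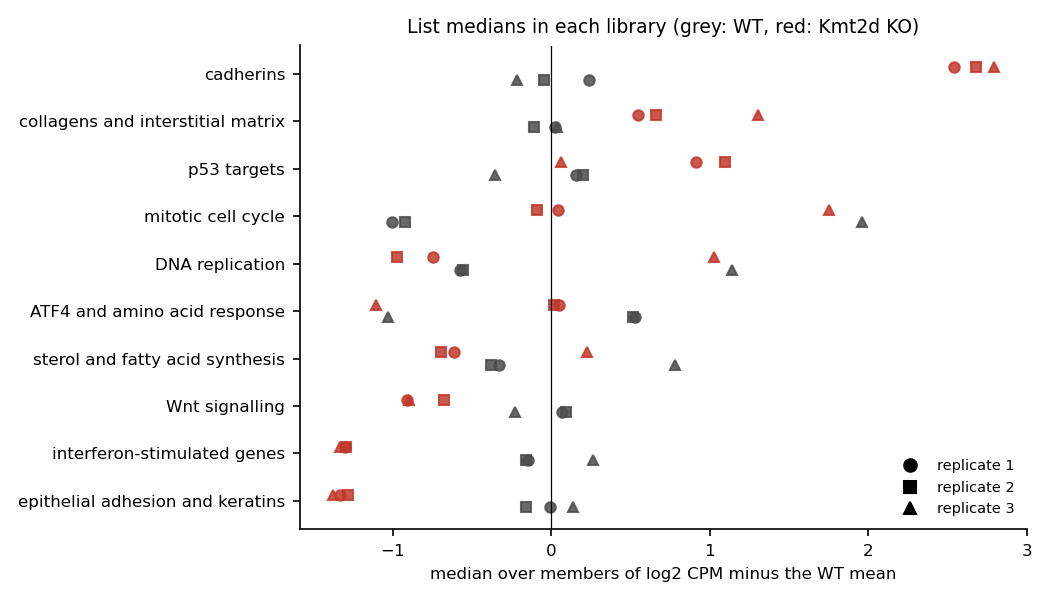
Median over the tested members of log2 CPM minus each gene's WT mean (x axis) in each of the 6 libraries for selected gene lists (y axis), with WT in grey, Kmt2d KO in red and replicates 1, 2 and 3 as circle, square and triangle. Epithelial and interferon genes are below 0 in all 3 Kmt2d KO libraries, while mitotic genes follow replicate 3 in both genotypes.

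Among the developmental pathways, many Wnt genes were lower. Of 28 tested, 12 were lower and 3 higher, with a median log2 fold change of -0.91. The 3 higher ones were Wnt3, Notum and Sfrp4, with 4.22, 1.31 and 4.86. Notum rose from 4.09 to 10.2 CPM, while Wnt3 and Sfrp4 had means under 1 CPM in both genotypes. Wnt9a, a ligand, fell from 26.2, 20.6 and 25.1 CPM to 1.18, 1.08 and 1.08 CPM, a log2 fold change of -4.42 (SE 0.51, edgeR adjusted p = 3.24e-04), and Wnt10a and Wnt7b had -2.04 and -1.16. Among receptors, Fzd1, Fzd3 and Fzd6 had -1.22, -1.56 and -0.98, and the coreceptors Lrp5 and Lrp6 were not called, with -0.10 and -0.30. Ctnnb1, which encodes beta-catenin of both the Wnt pathway and the adherens junction, fell from 1353, 1514 and 1131 CPM to 510.4, 522 and 657 CPM, a log2 fold change of -1.24 (SE 0.18, edgeR adjusted p = 0.00127). The nuclear partners Lef1 and Tcf7 were lower as well, with -2.68 and -1.50, and the target Axin2 was not called (2.05) except with the replicate block (2.14, edgeR adjusted p = 0.0362). Of 34 tested TGF-beta and BMP genes, 3 (8.82%) were higher and 8 (23.5%) lower, and the replicate block gave 5 and 9. Bmp7, a ligand, fell from 75.3, 71.3 and 48.4 CPM to 12.2, 15.6 and 9.92 CPM (-2.37 (SE 0.24, edgeR adjusted p = 1.51e-04)), and the ligand genes Tgfb2 and Inhbb had -3.04 and -2.65. Tgfbr3, a coreceptor, rose from 20.1, 17.9 and 6.12 CPM to 124, 123 and 98.1 CPM (2.97 (SE 0.39, edgeR adjusted p = 7.04e-04)).

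Notch and Hippo genes were more often lower than higher. Of 18 tested Notch genes, 2 (11.1%) were higher and 5 (27.8%) lower, with 4 and 6 under the replicate block. The ligand Jag2 fell from 9.26, 9.26 and 6.02 CPM to 1.64, 2.71 and 1.13 CPM (-2.16 (SE 0.40, edgeR adjusted p = 0.00448)), the ligand Dll1 rose from 12.1, 10.1 and 12.1 CPM to 26.9, 36.5 and 21.0 CPM (1.30 (SE 0.35, edgeR adjusted p = 0.0265)), and the Notch target Nrarp had -1.35. Of 24 tested Hippo genes and YAP targets, 2 (8.33%) were higher and 8 (33.3%) lower. Wwtr1, which encodes the coactivator TAZ, rose from 479, 519 and 319 CPM to 1096, 1039.7 and 724 CPM (1.12 (SE 0.27, edgeR adjusted p = 0.0173)), while its relative Yap1 was not called (-0.51). The partner factor Tead2 fell from 82.1, 68.2 and 89.0 CPM to 28.7, 31.9 and 37.4 CPM (-1.29 (SE 0.17, edgeR adjusted p = 7.43e-04)). Axl, which is also a YAP target, was higher as given above, Amotl1 was lower (-1.09), and the target Cyr61 was not called (0.35).

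Genes of lineage and position were altered. Of 19 tested mammary lineage genes, 7 were higher and 3 lower, and 6 were lower with the replicate block. Csn2 and Csn3, which encode milk caseins, follow each other among the tested genes of chromosome 5 in a run with Csn1s1 and Sult1d1, and all 4 were higher. Csn3 rose from 27.4, 27.0 and 16.4 CPM to 84.1, 84.3 and 76.2 CPM, a log2 fold change of 1.79 (SE 0.20, edgeR adjusted p = 3.21e-04). The surface markers Cd24a and Cd44, often used to separate luminal from basal or mesenchymal cells, moved in opposite directions. Cd24a fell from 426, 492 and 323 CPM to 158, 136 and 112 CPM (-1.61 (SE 0.20, edgeR adjusted p = 4.53e-04)), and Cd44 rose from 313, 338 and 299.6 CPM to 712, 633 and 744 CPM (1.13 (SE 0.14, edgeR adjusted p = 5.80e-04)). The luminal factor Gata3 was not called (-0.15). Of 13 tested Hox genes, 5 were lower and 1 higher, with a median log2 fold change of -1.39. With replicates 1 and 2 alone the median was -0.77, with 6 lower and 1 higher. WT replicate 3 had the highest level of the list, at 0.68 against -0.45 and -0.32 in WT replicates 1 and 2 (median log2 level relative to each gene's WT mean). With all replicates, all 5 lower genes belong to the Hoxa cluster, among them Hoxa5, from 263, 280.2 and 626 CPM to 60.7, 69.9 and 168 CPM (-1.97 (SE 0.50, edgeR adjusted p = 0.0201)), and Hoxa10 (-1.43). Hoxb4 rose from 0.424, 0.524 and 0.927 CPM to 7.82, 8.90 and 10.4 CPM (3.88 (SE 0.32, edgeR adjusted p = 4.63e-05)). H19, an imprinted non-coding RNA, fell from 15.3, 11.7 and 10.3 CPM to 0, 0.241 and 0.997 CPM (-4.97 (SE 1.02, edgeR adjusted p = 0.00767)), Plagl1, also imprinted, had -3.40, and Igfbp7, a secreted binding protein, fell from 579, 524 and 388 CPM to 98.5, 102 and 133 CPM (-2.16 (SE 0.21, edgeR adjusted p = 1.30e-04)). These belong to a list of 10 tested IGF system and imprinted genes, of which 2 were higher and 4 lower.

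Markers of other cell types were mostly low. Of 21 immune markers, 18 were under 1 CPM in all 6 libraries, and Cd3g, Cd8a, Ms4a1, Nkg7, C1qa and Itgax had no read. Their sum was 23.3 to 41.5 CPM in WT and 31.2 to 89.6 CPM in Kmt2d KO libraries. Most of that sum was Cd68, which tumour cells can also express, at 23.3, 22.4 and 37.1 CPM in WT and 75.3, 86.2 and 26.8 CPM in Kmt2d KO libraries, not called. Of the 5 immune markers tested, 1 was higher and 1 lower. Lyz2, a lysozyme of myeloid cells, rose from 0.557, 0.329 and 0.0927 CPM to 2.35, 2.67 and 3.5 CPM, a log2 fold change of 3.07 (SE 0.67, edgeR adjusted p = 0.0107). Csf1r, a receptor of macrophages that is also on the receptor tyrosine kinase list, was at 0.170, 0.359 and 3.71 CPM in WT and 0.0802, 0 and 0.108 CPM in Kmt2d KO libraries, where WT replicate 3 held most of the reads. Its log2 fold change of -4.48 (SE 1.44, edgeR adjusted p = 0.0521) lost its call when WT replicate 3 was left out (-2.08), and likewise for Kmt2d KO replicate 1 (-4.76) or 2 (-3.87). Of 17 endothelial and pericyte markers, 11 were under 1 CPM in all 6 libraries and Kdr, Cldn5, Emcn and Kcnj8 had no read, with sums of 17.6 to 20.9 CPM in WT and 23.3 to 25.9 CPM in Kmt2d KO libraries. Of the 8 that were tested, 5 were higher and 1 lower, and Clec14a rose from 1.82, 2.08 and 0.556 CPM to 13, 12.4 and 10.1 CPM (2.98 (SE 0.42, edgeR adjusted p = 0.00106)). Among the higher ones, Abcc9 and Vwf had WT means of 0.0651 and 0.0470 CPM. Genes this low in WT could enter the test only through a knockout group. Of 12 tested smooth muscle and contractile genes, 3 were higher and 0 lower, and the replicate block gave 5 and 2. Des, for the muscle filament desmin, rose from 2.97, 1.81 and 1.58 CPM to 25.1, 25.9 and 27.6 CPM (3.62 (SE 0.26, edgeR adjusted p = 2.40e-05)). Their part in the other results was not tested.

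Cell cycle genes depended on replicate 3. Of 30 tested mitotic genes, 0 were called in either direction by edgeR and the median log2 fold change was 0.16. Relative to each gene's WT mean, the median log2 level of the list was -1.01, -0.93 and 1.96 in WT replicates 1 to 3 and 0.04, -0.09 and 1.76 in Kmt2d KO replicates. Replicate 3 was the highest library of both genotypes, and replicates 1 and 2 were higher in the knockout than in WT. With the replicate block 6 were higher, and with replicates 1 and 2 alone 26 of the 30 were higher and 0 lower, with a median of 0.91. Mki67, a marker of cycling cells, was at 45.4, 49.7 and 548 CPM in WT and 237, 235 and 618 CPM in Kmt2d KO libraries. It was not called (log2 fold change 0.76 (SE 0.89, edgeR adjusted p = 0.608)), but had 1.46 with the block (adjusted p = 0.0692) and 2.93 without WT replicate 3 (adjusted p = 0.00534). Of 30 tested DNA replication genes, 0 were called, while the block gave 1 higher and 8 lower and replicates 1 and 2 gave 2 and 11. A further part of the cycle, the G1 cyclins and CDK inhibitors, had 6 of 17 tested genes higher and 1 lower, with 2 lower under the block. Cdkn2a, whose locus encodes the inhibitor p16 and the p53 activator ARF, rose from 1.15, 0.853 and 0.741 CPM to 6.52, 9.66 and 9.54 CPM, a log2 fold change of 3.22 (SE 0.26, edgeR adjusted p = 4.63e-05). Cdkn1a, which encodes the inhibitor p21, rose from 44.2, 36.5 and 11.8 CPM to 157, 177 and 103 CPM (2.24 (SE 0.45, edgeR adjusted p = 0.00738)), with replicate 3 the lowest of each group.

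Cdkn1a is also a target of p53. Of 25 tested p53 targets, 11 (44%) were higher and 3 (12%) lower, with a median log2 fold change of 0.65. The count with replicates 1 and 2 alone was 16 and 2. Relative to each gene's WT mean, the median log2 level of the list was 0.15, 0.20 and -0.36 in WT replicates 1 to 3. It was 0.91, 1.09 and 0.06 in Kmt2d KO replicates. Replicate 3 was the lowest library of each genotype, and Kmt2d KO replicate 3 lay below WT replicates 1 and 2. Ccng1, for cyclin G1, rose from 92.0, 102 and 88.9 CPM to 485, 403 and 283 CPM, a log2 fold change of 2.05 (SE 0.21, edgeR adjusted p = 1.91e-04). Phlda3, an inhibitor of AKT, rose from 21.8, 17.3 and 20 CPM to 62.6, 78.3 and 67.6 CPM (1.82 (SE 0.16, edgeR adjusted p = 7.02e-05)), and the death receptor gene Eda2r had 4.22. The apoptosis gene Bax was not called (0.52), and Perp, a target that also belongs to epithelial desmosomes, fell from 386, 418 and 370.3 CPM to 261, 219.7 and 191 CPM (-0.81 (SE 0.15, edgeR adjusted p = 0.00471)).

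Few genes of the metabolic lists were called when all replicates were used. Of 35 tested genes for oxidative phosphorylation, 1 was higher and 1 lower, and the median log2 fold change was -0.06. Of 28 tested sterol and fatty acid synthesis genes, 1 was higher and 3 lower, and 10 were lower with the replicate block. The list's median log2 fold change was -0.46, and replicate 3 had its highest level in each genotype. Scd2, a fatty acid desaturase, fell from 875, 922 and 1251 CPM to 472, 475 and 649 CPM (-0.93 (SE 0.24, edgeR adjusted p = 0.0224)). Of 28 tested ATF4 and amino acid response genes, 0 were higher and 3 lower, against 2 and 8 with the block. Their median log2 fold change was -0.36. Atf4 itself was at 961, 912 and 411 CPM in WT and 1008, 1019.7 and 441 CPM in Kmt2d KO libraries. Replicate 3 had the lowest Atf4 level of each genotype. Of 27 tested glycolysis and hypoxia genes, 3 were higher and 2 lower, against 8 and 5 with the block. Hk2, the first enzyme of glycolysis, fell from 233, 228 and 186 CPM to 138, 139 and 97.9 CPM (-0.78 (SE 0.17, edgeR adjusted p = 0.0111)), and Adm, for adrenomedullin, rose from 3.33, 3.08 and 3.71 CPM to 23.5, 21.9 and 39.1 CPM (3.06 (SE 0.44, edgeR adjusted p = 0.00115)). Of 25 tested antioxidant and glutathione genes, 3 were higher and 1 lower, with 3 lower under the block. Sod3, the extracellular superoxide dismutase, rose from 2.53, 2.86 and 2.43 CPM to 26.2, 33.2 and 39.5 CPM (3.66 (SE 0.23, edgeR adjusted p = 1.52e-05)).

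The changes with the smallest p-values were of genes with tight replicates in both groups. Beside Cadm1, the higher ones included Ric3, a chaperone of acetylcholine receptors, from 1.09, 1.23 and 1.20 CPM to 36.4, 32.2 and 28.4 CPM (4.78 (SE 0.18, edgeR adjusted p = 3.75e-06)). Epb41l3, a membrane skeleton protein that binds CADM1, rose from 7.39, 9.72 and 7.71 CPM to 147, 149 and 146 CPM (4.16 (SE 0.17, edgeR adjusted p = 4.40e-06)). Phex, an endopeptidase, and Prkcb, a protein kinase C, had log2 fold changes of 4.49 and 4.38. Among the lower ones, Sorbs2, an adaptor of the actin cytoskeleton, fell from 131, 151 and 125 CPM to 17.6, 18.1 and 24.7 CPM (-2.75 (SE 0.18, edgeR adjusted p = 1.62e-05)). Atp1b1, the beta subunit of the sodium pump, fell from 97.0, 105 and 81.2 CPM to 9.10, 11.4 and 14.0 CPM (-3.04 (SE 0.20, edgeR adjusted p = 1.71e-05)), and Dbn1, the actin-binding protein drebrin, had -2.33.

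A few genes changed between near silence and clear expression. Of the genes tested, 14 were switched on, defined as under 0.5 CPM in every WT and over 5 CPM in every Kmt2d KO library, and 5 were switched off by the reverse rule. Fgf10, a fibroblast growth factor of mammary and lung mesenchyme, was at 0.424, 0.419 and 0.139 CPM in WT and 37.6, 38.0 and 20.3 CPM in Kmt2d KO libraries, a log2 fold change of 6.54 (SE 0.46, edgeR adjusted p = 2.19e-05). Hdac9, a class IIa histone deacetylase, went from 0.0969, 0.120 and 0 CPM to 8.52, 8.39 and 9.65 CPM (6.76 (SE 0.55, edgeR adjusted p = 4.62e-05)), and Colec10, a secreted lectin, from 0.194, 0.0598 and 0.0927 CPM to 11.8, 10.6 and 8.22 CPM (6.38 (SE 0.55, edgeR adjusted p = 5.99e-05)). The switched-off genes were Postn, Ltf, Pigr, Foxj1 and 2310007B03Rik. Ltf, which encodes the milk protein lactoferrin, was at 81.9, 76.3 and 8.92 CPM in WT and 0.0401, 0.120 and 0.0539 CPM in Kmt2d KO libraries, and Pigr, the receptor that carries antibodies into milk, at 10.2, 9.54 and 6.28 CPM and 0.0401, 0 and 0.0539 CPM. Foxj1, a regulator of motile cilia, fell from 10.0, 6.46 and 14.1 CPM to 0.361, 0.361 and 0.485 CPM (-4.66 (SE 0.53, edgeR adjusted p = 3.09e-04)). Of the 14 switched on, 11 were also over 5 CPM in every Kmt2c KO library. Of the 5 switched off, 4 were also under 0.5 CPM in every Kmt2c KO library. With a limit of 1 CPM in place of 0.5, 58 genes were switched on and 18 off. The number switched off also rested on single libraries, with 15 without Kmt2d KO replicate 3 and 8 without either Kmt2d KO replicate 2 or WT replicate 3.

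Changes were not even along the genome. The tested genes of chromosome 7 had a median log2 fold change of 0.37, with 23.5% called higher and 7.25% lower, where 14.3% and 11.2% were called over all genes. The median level of that chromosome lay between 0.318 and 0.431 above the WT mean in the 3 Kmt2d KO libraries and between -0.0652 and 0.0501 in the WT libraries, so the groups did not overlap. Chromosome 17 had a median of -0.31, with 20.4% of its genes lower, and chromosome 8 one of -0.21. The X chromosome had 23.9% of its genes higher and a median of 0.12. In Kmt2c KO cells, against the same WT libraries, the medians of chromosomes 7, 17, 8 and X were 0.50, -0.19, -0.28 and 0.22. Chromosomes 7, 17 and 8 hold some of the genes named here, such as Pvr and Ric3 on 7, the class I gene H2-T23, Psmb8 and Epcam on 17 and Cdh1 and Foxc2 on 8, and the share of each gene's change that follows its chromosome was not tested.

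**Figure D4:**
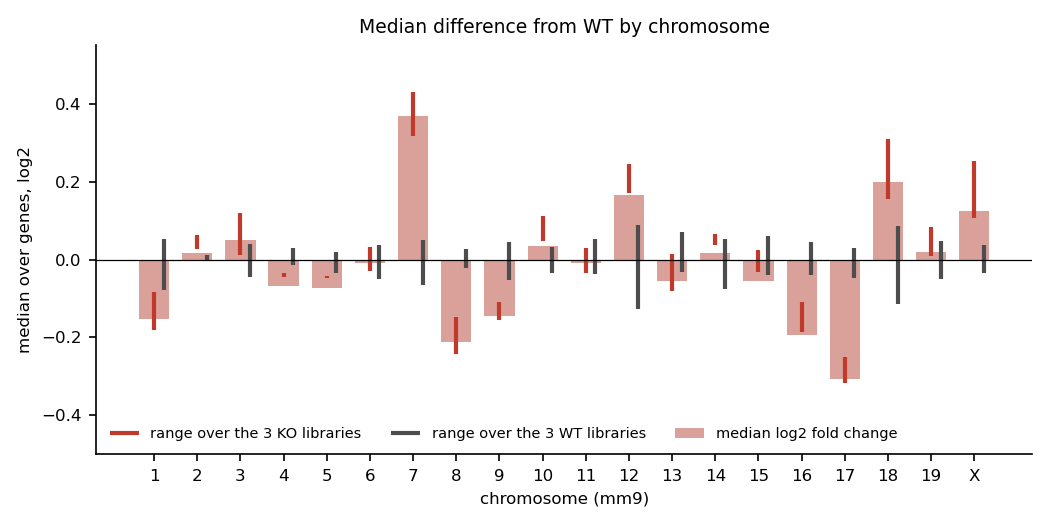
Median log2 fold change of Kmt2d KO over WT (bars, y axis) of the tested genes of each mm9 chromosome (x axis), with lines for the range over the 3 libraries of each genotype of the library's median difference from the WT mean. Chromosome 7 lies highest at 0.37 and chromosome 17 lowest at -0.31, with the 3 knockout libraries close together.

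Some neighbouring genes were called in the same direction. Counting runs of at least 4 tested genes in a row that were called in one direction, 29 runs of higher genes held 131 of the 1957 higher genes. Likewise, 15 runs of lower genes held 67 of the 1533 lower genes, so most called genes lay outside such runs. With 14.3% of genes higher and 11.2% lower, some runs can arise from these shares alone, and their number was not tested. The longest was on the X chromosome, where 7 genes from Cxx1a to Ddx26b were higher with a median log2 fold change of 3.56. A run of 6 lower genes on chromosome 11, which included Ctns, for a lysosomal cystine transporter, had a median of -2.38. The claudin genes Cldn3 and Cldn4 lay in 1 lower run of 5 genes, and Dcn and Lum, which encode matrix proteoglycans, in 1 higher run of 4. Several runs consisted of related genes, including Gbp genes on chromosomes 3 and 5, Gstt genes on chromosome 10 and Naip genes on chromosome 13. Reads can be split among such copies, and overlapping neighbours may share reads, so single members of these runs are uncertain.

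The 2 knockouts of 67NR were set side by side to see what was particular to Kmt2d. Both used the same WT libraries, so their fold changes against WT are not independent. Most changes were shared: 1825 of the 1957 higher and 1385 of the 1533 lower genes were called in the same direction in Kmt2c KO cells. The study reported a lower share of mutant reads for Kmt2c than for Kmt2d in this line. The part of this in the differences between the knockouts was not tested. Tested against each other directly, 193 genes (1.41%) differed by edgeR. This number moved with single libraries: it was 53 and 52 without Kmt2d KO replicates 1 and 2 and 59, 42 and 96 without Kmt2c KO replicates 1, 2 and 3. It was 1004 with the replicate block and 1744 with replicates 1 and 2 only. Palmd, for the cytoskeletal protein palmdelphin, was at 74.8, 73.2 and 66.3 CPM in WT libraries, 2.89, 2.77 and 5.17 CPM in Kmt2d KO and 0.226, 0.400 and 0.410 CPM in Kmt2c KO libraries. It was lower than WT in both, and Kmt2d KO over Kmt2c KO gave a log2 difference of 3.40 (SE 0.32, edgeR adjusted p = 0.00562). Psmb8 was at 34.6, 35.9 and 29.5 CPM in Kmt2d KO and 9.07, 8.66 and 8.84 CPM in Kmt2c KO libraries (1.91 (SE 0.16, edgeR adjusted p = 0.00382)), and the adhesion molecule gene Vcam1 at 81.6, 74.0 and 63.3 and 18.4, 20.3 and 22.2 CPM (1.84 (SE 0.17, edgeR adjusted p = 0.00462)). Against the same WT libraries, the list medians were -1.26 in Kmt2d KO and -2.20 in Kmt2c KO cells for epithelial genes, and -1.41 and -2.14 for interferon-stimulated genes. In the direct test, 6 of the 32 epithelial and 5 of the 44 interferon-stimulated genes were higher in Kmt2d KO than in Kmt2c KO cells and 0 lower.

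Genes lower in Kmt2d KO than in Kmt2c KO cells included Cxcr4, at 0.791, 0.366 and 0.359 CPM in Kmt2c KO libraries and without a read in Kmt2d KO libraries, at least 23-fold lower than in Kmt2c KO cells. S100a14, a calcium-binding protein of epithelia, was at 8.15, 7.25 and 6.25 CPM in WT libraries, 6.34, 7.19 and 9.78 CPM in Kmt2d KO and 19.9, 18.9 and 18.5 CPM in Kmt2c KO libraries. It was not called against WT (0.10) and differed between the knockouts by -1.30 (SE 0.21, edgeR adjusted p = 0.0316).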

How the data were processed

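PolyA RNA of cultured 67NR cells was made into libraries with the Kapa mRNA HyperPrep kit and sequenced. The authors ran STAR in the VIPER pipeline against mm9 and deposited whole-number counts of reads per gene symbol, without normalization. Whether reads were counted by strand is not given in the sources used here, so counts of overlapping genes are uncertain. Of 24360 symbols, 20485 were found by name in the mm9 annotation, 1478 under an older name, 267 in several genes and 2103 in none, and 27 had been turned into dates. Of the columns, 0 were left unused.

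The Rn45s row was dropped. Counts of 9 libraries were fitted with edgeR 4.0.16 (quasi-likelihood with robust estimates, TMM, filterByExpr, genotype as the only factor) in R 4.3.3 with limma 3.58.1, with Benjamini-Hochberg adjustment. A standard error is the size of the log2 fold change over the root of its F statistic. The precision of each value rests on 3 replicates a group and on the depth given in the report, and floors of 3 reads cover counting error only. Alternatives were DESeq2 1.42.0, DESeq2 size factors, Rn45s kept, no filter, the replicate block, only the 6 libraries compared, stricter thresholds (adjusted p of 0.05, log2 fold change of 1), each library left out, and 1 CPM or total-count scaling for switched genes. Replicates 1 and 2 only, and leaving out libraries for switched genes, were added after seeing the data. The script was tested on simulated data.

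Same-numbered WT and Kmt2d KO libraries deviated together from their group means (correlations of 0.352 to 0.606, against -0.509 to 0.457 for different numbers). Only the replicates numbered 3 were paired by this measure (0.606). Replicates 1 and 2 were not, since WT 1 with knockout 2 (0.415) and WT 2 with knockout 1 (0.457) exceeded their same-numbered pairs (0.386 and 0.352). The study took each collection time as a batch when it drew its heatmaps, while its differential tests used genotype. The labels do not say that a number marks a collection, so the pairing is read from the data and for replicate 3 only. The first principal component (62.7%) followed genotype and the second (20.2%) replicate 3.

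Members and the 38 gene lists were chosen with earlier results of these data known. Genes were named if the study names them, if they had the smallest p-values or largest CPM changes without overlap, if they were switched on or off, if they led a list or were its most abundant uncalled members, or if they led the Kmt2c KO comparison. Other list members are named to describe the list. Results for a few genes are not reported here.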

Additional observations from a re-analysis of the deposited data

Results flagged for a closer look

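The genes below differed between Kmt2d KO and Kmt2c KO cells in a direct test (edgeR, all 9 libraries), so that their changes from the shared WT libraries were unequal. Values are log2 differences, Kmt2d KO minus Kmt2c KO. Palmd was at 3.40 (SE 0.32, edgeR adjusted p = 0.00562) and lay below WT in both knockouts. Psmb8 had 1.91 (SE 0.16, edgeR adjusted p = 0.00382), Vcam1 1.84 (SE 0.17, edgeR adjusted p = 0.00462), Flrt3 1.76 (SE 0.14, edgeR adjusted p = 0.00382) and the potassium channel gene Kcnk1 1.59 (SE 0.15, edgeR adjusted p = 0.00462), and each was lower than WT in Kmt2d KO cells. Cxcr4 had a fitted difference of -7.83 (SE 1.01, edgeR adjusted p = 0.0257), which depends on how the fit treats the Kmt2d KO libraries without a read, and it was at least 23-fold lower by the floor. Wdfy4 had -4.35 (SE 0.48, edgeR adjusted p = 0.00899) and Pdha2 -2.34 (SE 0.30, edgeR adjusted p = 0.0123), and both were higher than WT in Kmt2d KO cells, at means of 0.499 and 2.11 CPM. S100a14 had -1.30 (SE 0.21, edgeR adjusted p = 0.0316) and was not called against WT in Kmt2d KO cells. 1700012B09Rik had -0.80 (SE 0.15, edgeR adjusted p = 0.0515), with means of 3.59 CPM in WT, 108 CPM in Kmt2d KO and 188 CPM in Kmt2c KO libraries. In all, 193 genes passed this test, a number that ranged from 42 to 210 with 1 library left out.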

How the results depend on the processing

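No called gene among those chosen for naming by the rule changed direction in the alternatives run. The medians of the DNA replication, mitotic, oxidative phosphorylation, sterol, glycolysis, IGF, chemokine, plasminogen, basement membrane and smooth muscle lists, however, changed sign in at least 1 alternative. The 1957 higher and 1533 lower genes became 1243 and 863 with thresholds of 0.05 for the adjusted p and 1 for the log2 fold change, and 1586 to 2334 and 1134 to 1768 with 1 library left out. The replicate block takes libraries of the same number as belonging together, which the data show for replicate 3 only. With it, 2433 genes were higher and 2038 lower, of which 1942 and 1521 were among the genes above. Among the genes chosen for naming, the block ended the call of Ncl (-0.60) and added, among others, Krt8, Esrp1, Mki67, Cdh13 (1.53), Nt5e (-0.70), Cxcl5 (1.27), Aldoa (0.64), Rbpj (0.67), Ankrd1 (-0.93) and Egfl7 (-1.70). For Kmt2d KO against Kmt2c KO, the 193 genes became 596 by DESeq2, 1004 with the replicate block, 90 with only the 6 libraries compared, 90 at the stricter threshold, 1744 with replicates 1 and 2 only and 42 to 210 with 1 library left out. Switched genes numbered 58 on and 18 off below 1 CPM, and 14 to 21 on and 5 to 15 off with 1 library left out.

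Without the filter on low counts, list medians became, for EMT transcription factors 0.12, integrins -0.092, metalloproteinases 1.13, plasminogen system -0.016, brain colonization 1.20, cadherins 2.37, chemokines -0.34, smooth muscle -0.31, IGF system 0.081 and endothelial markers 0.71, since more genes enter. The block gave 0.12 for smooth muscle, and only the 6 libraries -1.14 for Wnt genes. Replicates 1 and 2 gave -0.12 for basement membrane, 1.18 for brain colonization, 1.73 for cadherins, -1.13 for interferon-stimulated genes, 0.32 for chemokines, -0.17 for receptor tyrosine kinases and -0.77 for Hox genes. The filter was run anew in that fit, so the tested members of a list can differ.

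With 1 library left out, medians ranged from -0.68 to 0.014 for the IGF system, -0.55 to -0.25 for Notch, -0.23 to -0.011 for Polycomb, 1.11 to 1.36 for brain colonization, 2.01 to 3.11 for cadherins, -0.22 to 0.35 for chemokines, 1.60 to 2.34 for endothelial markers, -0.094 to 0.21 for glycolysis, -0.63 to -0.39 for integrins, -1.54 to -1.16 for interferon-stimulated genes, 0.43 to 0.81 for metalloproteinases, -0.44 to -0.20 for receptor tyrosine kinases, -0.22 to 0.12 for smooth muscle, -0.37 to -0.28 for chromosome 17 and 0.081 to 0.24 for the X chromosome. The cause was not tested.

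With 38881600 or more reads a library after removal of Rn45s, genes under 1 CPM in WT still rest on few reads, and their fold changes are the least certain.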
